A study of Mus musculus with 2 samples.

Results

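Mouse Zfp genes, named for the zinc finger proteins they encode, and Trim28 (KAP1) were examined in primordial germ cells (PGCs), the embryonic cells from which eggs and sperm later form. Members were every row of the expression table whose symbol was Zfp followed only by digits, with Zfp42 left out, plus Trim28. This gave 326 genes of 18877 in the table, namely 325 Zfp genes and Trim28. RNA was measured in PGCs of C57BL6 mouse embryos at embryonic day 9.5 (E9.5), isolated with an antibody to the surface antigen SSEA1 and left untreated. The study's methods state that the embryos were female. They describe sorting by flow cytometry for CD61 and SSEA1, or by magnetic beads for SSEA1. Whether CD61 was also used for these libraries was not settled. There was 1 group with 2 libraries, called replicates 1 and 2. There was no control, mutant or treated group, and neither embryo numbers nor pooling of embryos was given for these libraries in the sources used here. The study describes its RNA-seq replicates as biological, and with only these libraries no difference was tested. SSEA1 is not restricted to PGCs, so the labelled cell type was checked against its markers, given further on.

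Many Zfp genes encode KRAB zinc finger proteins, in which an array of C2H2 zinc fingers binds DNA and an amino-terminal KRAB box binds Trim28. Trim28 carries no DNA-binding fingers of its own and brings the histone methyltransferase Setdb1, HP1 proteins and histone deacetylases to the bound site, which is then packed into heterochromatin. Most known targets are transposable elements, and a few KRAB proteins hold DNA methylation at imprinted loci while the rest of the genome is demethylated in the early embryo. In PGCs these imprints are themselves erased. The genes lie in clusters that arose by repeated duplication, so neighbours are often near copies of each other.

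The symbol rule did not select KRAB genes alone. Annotated proteins were scanned for the KRAB A box by scoring 20 conserved positions, and a score of at least 14 was taken as a box. A box was found in 194 members, here termed KRAB members. The 128 members without a box include Trim28, and 4 members are pseudogenes with no annotated protein. Of the 322 members with a protein, 187 scored 17 or more and 121 scored 10 or less, while 7 scored 14 to 16 and 7 scored 11 to 13. KRAB members carried a median of 12 fingers, against 8 in members without the box, and 3 KRAB members had none. A further 96 genes of the table had the box under other symbols and were not members. The highest of these, named after its values were seen, was Zfp119b, whose levels in replicates 1 and 2 were 64.1 and 49.7 TPM (transcript abundance scaled by gene length and library total).

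The sequences that follow show the start of Trim28 beside those of related KRAB genes from a region of chromosome 4. This region held 18 members and many of the most abundant KRAB members. Each is the 250 bases before the transcription start, read 5′ to 3′ on the gene's own strand, from RefSeq on GRCm38.p6, and capitals mark CpG dinucleotides, the sites of DNA methylation. The windows are chr7:13023902-13024151 on the plus strand for Trim28, chr4:147553027-147553276 (plus) for Zfp985, chr4:147492167-147492416 (plus) for Zfp982, chr4:147642509-147642758 (minus) for Zfp979, chr4:146156577-146156826 (plus) for Zfp600 and chr4:147848419-147848668 (minus) for Zfp933. In the GENCODE M21 annotation the Trim28 window is intronic to a longer Trim28 transcript. The Zfp985 and Zfp933 windows overlap no annotated gene. The last 5 bases of the Zfp979 window and the last 3 of the Zfp600 window are exonic in those genes, and 27 bases of the Zfp982 window are exonic in the neighbouring gene C230088H06Rik. The Zfp600 window also lies within an intron of the annotated gene Gm26573.
Trim28: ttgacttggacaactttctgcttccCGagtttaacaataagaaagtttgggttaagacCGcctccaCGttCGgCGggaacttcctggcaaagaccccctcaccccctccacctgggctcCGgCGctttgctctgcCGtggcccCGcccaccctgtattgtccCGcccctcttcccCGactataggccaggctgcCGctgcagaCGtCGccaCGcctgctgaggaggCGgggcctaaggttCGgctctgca
Zfp985: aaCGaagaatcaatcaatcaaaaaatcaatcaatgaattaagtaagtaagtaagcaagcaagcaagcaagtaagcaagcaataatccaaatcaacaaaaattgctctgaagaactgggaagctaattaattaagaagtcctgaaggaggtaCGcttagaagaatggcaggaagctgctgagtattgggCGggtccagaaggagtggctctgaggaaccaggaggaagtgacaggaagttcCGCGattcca
Zfp982: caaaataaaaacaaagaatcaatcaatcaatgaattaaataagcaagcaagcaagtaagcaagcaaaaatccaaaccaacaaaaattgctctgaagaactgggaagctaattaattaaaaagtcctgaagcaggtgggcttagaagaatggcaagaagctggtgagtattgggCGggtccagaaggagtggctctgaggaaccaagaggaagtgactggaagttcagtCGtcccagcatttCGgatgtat
Zfp979: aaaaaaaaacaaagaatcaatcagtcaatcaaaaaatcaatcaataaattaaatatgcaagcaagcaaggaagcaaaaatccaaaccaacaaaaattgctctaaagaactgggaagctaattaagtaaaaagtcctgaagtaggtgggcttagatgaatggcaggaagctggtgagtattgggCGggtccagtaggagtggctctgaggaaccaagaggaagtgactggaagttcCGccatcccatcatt
Zfp600: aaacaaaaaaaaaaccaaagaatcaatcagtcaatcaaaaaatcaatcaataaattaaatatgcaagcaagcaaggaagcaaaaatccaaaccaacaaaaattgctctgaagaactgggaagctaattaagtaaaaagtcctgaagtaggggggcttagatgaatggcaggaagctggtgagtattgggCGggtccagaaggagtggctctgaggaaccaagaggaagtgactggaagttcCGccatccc
Zfp933: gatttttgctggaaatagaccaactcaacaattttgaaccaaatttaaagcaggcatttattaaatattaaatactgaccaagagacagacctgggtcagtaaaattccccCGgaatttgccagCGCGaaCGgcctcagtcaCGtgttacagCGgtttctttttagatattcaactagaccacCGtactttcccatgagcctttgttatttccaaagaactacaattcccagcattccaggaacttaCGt
The Trim28 window holds 17 CpG dinucleotides. The windows of Zfp985, Zfp982, Zfp979 and Zfp600 hold 5, 3, 2 and 2, and share long stretches of sequence. The Zfp933 window holds 8 and is unlike the other 4 of chromosome 4.

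The 2 libraries differed in depth. Reads recovered from the TPM values and exon lengths came to 15912470 in replicate 1 and 5458687 in replicate 2. The members held 104996 and 32346 of these reads. The median member had 116 reads in replicate 1 and 36 in replicate 2, and 34 and 73 members had fewer than 10. Intervals given below are exact 95% Poisson intervals on the recovered reads and cover counting error only. All 11 PGC markers in the table were at 1 TPM or more in both libraries, from 21079 ± 340 TPM for Dppa5a (mean ± SD, n = 2, as elsewhere) and 5044 ± 44.1 TPM for Dppa3 down to 1.5 ± 0.057 TPM for Pou5f1. Globin genes of red blood cells were also abundant, with the 6 erythroid markers in the table summing to 3983 and 3765 TPM. The erythroid, endothelial, macrophage and mesenchyme lists held 7, 6, 5 and 5 genes, and the sums cover only those in the table. The 5 endothelial markers summed to 12.9 and 11 TPM, of which Pecam1 held 8.23 and 9.99 TPM while the other 4 were all lower in replicate 2, the 4 macrophage markers to 19.4 and 9.53, the 4 mesenchyme markers to 2.37 and 3.95, the 5 gonadal epithelium markers to 3.91 and 3.99, and the 3 neural markers to 6.41 and 7.05. The part of these cells in any member's level was not tested, and in such bulk libraries fewer cells of a type and less RNA per cell cannot be told apart.

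Trim28 was among the most abundant members, and the partner genes examined were all present. Trim28 (chromosome 7, plus strand) stood at 68.6 TPM in replicate 1, with an interval of 66.0 to 71.2 on 2710 reads, and at 61.1 TPM in replicate 2, with an interval of 57.1 to 65.4 on 850 reads. Its mean was 64.9 ± 5.24 TPM, the fourth highest of the 326 members. The intervals of both libraries did not overlap, so on the TPM values as deposited they differed by more than counting error. With the libraries scaled by the median ratio the mean was 64.8 ± 3.76 TPM, and the intervals were not computed on that scale. All 25 genes on a list of Trim28 partners were at 1 TPM or more in both libraries, against 60% of all genes. Their median level was 3.88 ± 0.029 on the log2(TPM + 1) scale, against 1.87 ± 0.028 for all 18877 genes.

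The partners spanned a wide range. Sumo2, the modifier that Trim28 attaches to itself, stood at 404 ± 32.9 TPM. Among the HP1 proteins, which bind methylated histone H3 lysine 9, Cbx1 stood at 130 ± 1.12 TPM, Cbx3 at 36.5 ± 8.74 TPM and Cbx5 at 18 ± 0.064 TPM. These lay in the same order in both libraries. Of the deacetylases, Hdac2 reached 130 ± 4.96 TPM and Hdac1 5.11 ± 0.845 TPM. Of the 2 remodellers of the NuRD complex on the list, Chd4 stood at 13.7 ± 0.301 TPM and Chd3 at 2.21 ± 0.170 TPM. Setdb1, which writes the repressive mark at Trim28 targets, stood at 17.8 ± 0.526 TPM. Its cofactors differed, with Resf1 at 22.1 ± 1.85 TPM, Atf7ip2 at 5.09 ± 0.226 TPM and Atf7ip at 1.93 ± 0.489 TPM. The other H3 lysine 9 methyltransferases ranged from 16.3 ± 2.42 TPM for Suv39h2 and 10.9 ± 1.46 TPM for Suv39h1 to 3.23 ± 0.859 TPM for Ehmt1 and 1.37 ± 0.449 TPM for Ehmt2, the lowest of the list. Dnmt1, the maintenance DNA methyltransferase, stood at 19.0 ± 0.180 TPM, while Uhrf1, which brings it to replicated DNA, stood at 2.20 ± 0.070 TPM. Atrx and Daxx, which together deposit histone H3.3 at silenced repeats, stood at 27.1 ± 0.804 and 7 ± 1.19 TPM. The relatives Trim24 and Trim33 were at 15.7 ± 1 and 10.8 ± 0.626 TPM. Morc3 was at 36.5 ± 3.71, Smarcad1 at 6.12 ± 0.145 and the SUMO ligase Pias1 at 6.86 ± 0.461 TPM.

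**Figure D1:**
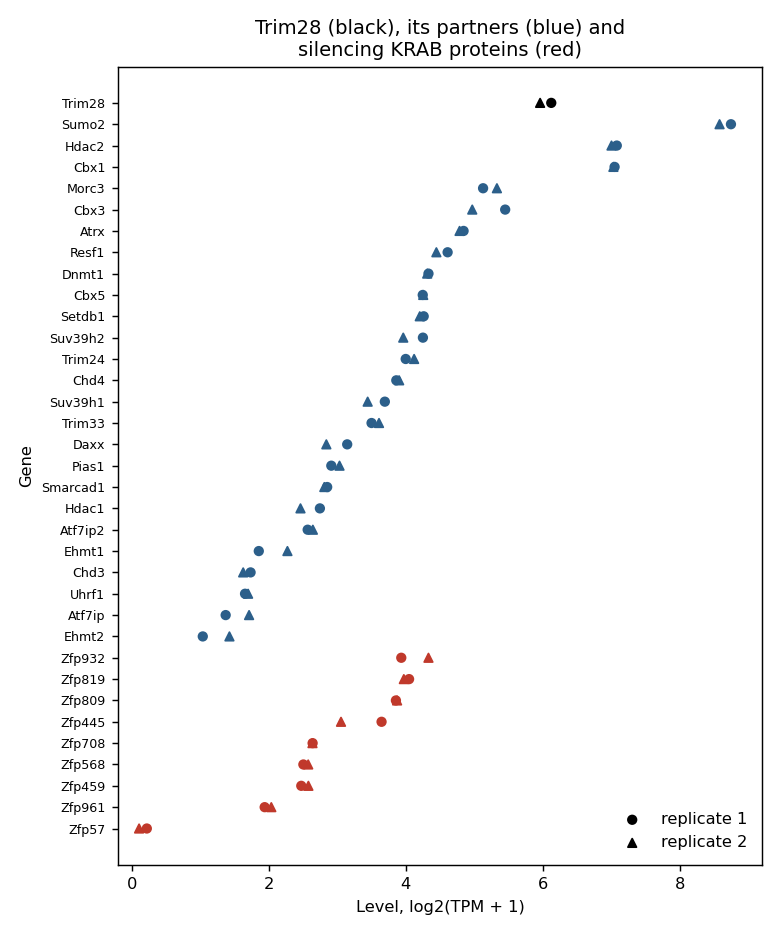
Levels of Trim28, 25 partner genes and 9 KRAB proteins known to silence repeats or imprinted loci, on the log2(TPM + 1) axis, with circles for replicate 1 and triangles for replicate 2. Zfp57 sits close to 0 in both libraries, at 0.167 and 0.079 TPM, while every other gene drawn lies above 1 TPM in both.

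Among KRAB proteins with known silencing targets, Zfp57 stood apart by its low level. Of the 9 members on this list, 8 (88.9%) were at 1 TPM or more in both libraries, against 60% of all genes. Zfp57, which protects methylation at imprinting control regions, was represented by 6 reads in replicate 1 and 1 read in replicate 2. Its level was 0.167 TPM, with an interval of 0.061 to 0.363, in replicate 1 and 0.079 TPM, with an interval of 0.002 to 0.440, in replicate 2. The read of replicate 2 lies under the limit of 3 reads that a count of 0 allows, which is 0.237 TPM for this gene. Its exons are unique in sequence among annotated transcripts, and it ranked 314 of 326 by mean TPM.

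Zfp445, which acts beside Zfp57 at imprinting control regions, stood at 11.5 TPM on 811 reads in replicate 1 and at 7.31 TPM on 181 reads in replicate 2. The intervals of 10.7 to 12.3 and 6.28 to 8.45 did not overlap each other, and both lay above those of Zfp57. Zfp809, which recognizes the primer binding site of murine leukaemia viruses and related elements, stood at 13.5 and 13.6 TPM. Its intervals of 12.1 to 14.9 and 11.4 to 16.1 overlapped. Zfp932, which binds endogenous retroviruses, stood at 14.3 and 19.1 TPM, and Zfp819 at 15.5 and 14.7 TPM. Zfp568, which silences a placental promoter of Igf2, stood at 4.68 and 4.96 TPM. Zfp459 was at 4.56 and 4.97 TPM and Zfp961 at 2.84 and 3.11 TPM. Zfp708 was listed at 5.23 TPM in both libraries, but only 5.75% of its exonic sequence was unique among annotated genes, so its reads cannot be assigned with certainty.

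Members without a KRAB box also reached the upper range. At least 10 TPM in both libraries was reached by 16 of 128 (12.5%), against 32 of 194 KRAB members (16.5%) and 25.3% of all genes. Of 7 members linked to pluripotency or the germ line, all 7 were at 1 TPM or more in both libraries, against 60% of all genes. Zfp207, a spindle and chromatin protein, stood at 42.6 and 38.5 TPM. Zfp281, a regulator of pluripotent cells, was at 33.9 and 34.2 TPM, and Zfp131 at 19.5 and 20.1 TPM. Zfp143, which binds promoters of many housekeeping genes, was at 10.9 and 7.64 TPM. Zfp217 stood at 6.94 and 6.82 TPM, Zfp462 at 5.39 and 6.18 TPM and Zfp296 at 3.51 and 4.41 TPM.

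A further list held members chosen as acting on RNA, ribosomes or other proteins, roles that were not tested here. Of its 11 members, 10 (90.9%) were at 1 TPM or more in both libraries, against 60% of all genes. Zfp706, a protein of only 76 residues, was the most abundant member at 330 TPM in replicate 1 and 291 TPM in replicate 2. It alone held 13% and 13.1% of the TPM of all members. Zfp593 stood at 21.1 and 24.5 TPM, with 42.1% of its exonic sequence unique, and Zfp106 at 20.3 and 24.1 TPM. Zfp622, a factor of large ribosomal subunit maturation, was at 14.2 and 13.8 TPM. Zfp598, the ubiquitin ligase of collided ribosomes, was at 16.2 and 13.3 TPM. Zfp638 stood at 17.4 and 15.2 TPM, Zfp330 at 18.5 and 12.4 TPM, Zfp91 at 7.19 and 6.40 TPM, Zfp326 at 5.04 and 2.78 TPM and Zfp346 at 3.58 and 1.5 TPM. Zfp36, which drives decay of messenger RNAs with AU-rich elements, was the lowest at 24 reads (0.728 TPM) in replicate 1 and 0 reads in replicate 2.

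Zinc fingers known from other lineages that had a row in the table reached 1 TPM in about the same share as all genes. The list held 10 genes, of which only 5 were in the table. Of these 5 members, 3 (60%, against 60% of all genes) were at 1 TPM or more in both libraries. The highest was Zfp521, a regulator of blood and neural progenitors, at 5.11 and 3.21 TPM. Zfp750, known from epidermal differentiation, stood at 1.69 and 3.89 TPM and Zfp503 at 1.27 and 2.41 TPM. Zfp90 was at 0.982 and 1.38 TPM, with only 25.3% unique sequence. Zfp703 was represented by 0 reads and 1 read. Lineage members spanned 0 to 5.11 TPM. Their medians were 1.18 and 1.77 on the log2(TPM + 1) scale, against 1.89 and 1.85 for all genes.

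The median level of the whole set was close to that of all genes and below that of protein-coding genes, and fewer members reached high levels. At least 1 TPM in both libraries was reached by 210 members (64.4%), against 60% of all 18877 genes and 69.5% of the 12679 protein-coding rows. At least 10 TPM in both was reached by 49 members (15%), against 25.3% of all genes. The median level of the members was 1.94 in replicate 1 and 1.79 in replicate 2 on the log2(TPM + 1) scale, a mean of 1.86 ± 0.105. The corresponding medians for all genes were 1.89 and 1.85. The difference of members minus all genes was -0.006 ± 0.077 and changed sign between the libraries, so the medians were not separated beyond the replicate spread. Against protein-coding rows alone the difference was -0.38 ± 0.054, and among genes with a mean of at least 1 TPM it was -0.47 ± 0.01, both larger than the spread. In total the members held 2534 TPM in replicate 1 and 2215 TPM in replicate 2, or 0.254% and 0.222% of the summed TPM of each library.

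**Figure D2:**
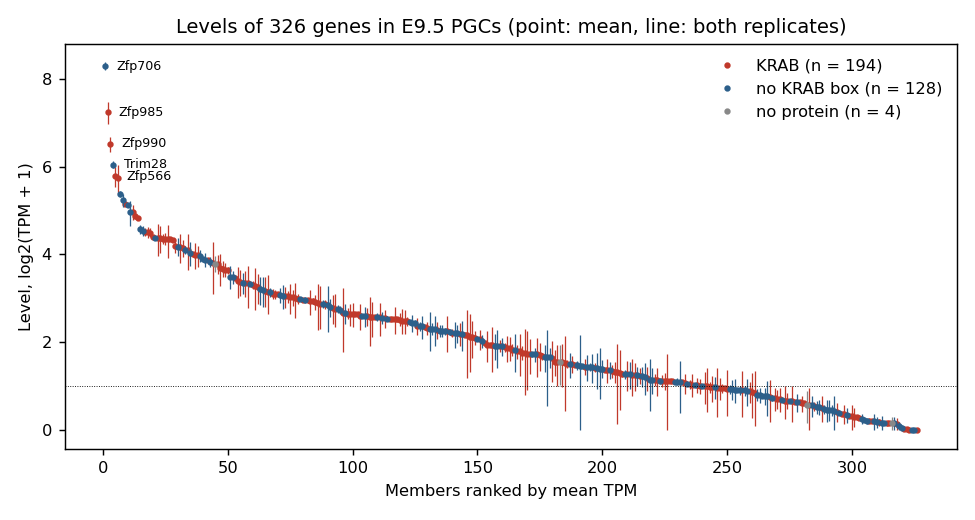
Levels of the 326 members ranked by mean TPM, with the log2(TPM + 1) level on the vertical axis, the point at the mean and the line between both replicates; the dotted line marks 1 TPM. Zfp706 stands at the top, followed by Zfp985, Zfp990, Trim28 and Zfp566, and 210 members reached 1 TPM in both replicates.

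At the top of the order, Zfp706 was followed by the KRAB members Zfp985 at 175 and 125 TPM and Zfp990 at 102 and 79.95 TPM. For each of these 3, the lower library stood above the higher library of the next gene. Together they held 23.9% and 22.4% of the members' TPM. From Trim28 down to Zfp984 such ranges overlapped between neighbours. Trim28, at 61.1 TPM in its lower library, was below the 62.4 TPM of the fifth gene, the KRAB member Zfp566, in its higher library. Within each library, however, Trim28 was above Zfp566. Zfp566 stood at 62.4 and 45.2 TPM and Zfp988 at 64.2 and 40.8 TPM. Zfp207, Zfp105, Zfp979, Zfp281, Zfp367 and Zfp984 came next, with means from 40.6 down to 30.3 TPM, and the library ranges of neighbours overlapped. Beyond these, the 12 highest KRAB members included Zfp936 at 26.9 and 29.7 TPM, Zfp825 at 27.2 and 27.9, Zfp938 at 23.2 and 20.5, Zfp944 at 23.7 and 19.8, Zfp958 at 20.1 and 23.2, and Zfp978 at 20.3 and 19.99 TPM. At the other end, Zfp174, Zfp641 and Zfp879 were at 0 reads in both libraries. The limit of 3 reads that a count of 0 allows is 0.152, 0.209 and 0.372 TPM for these genes in replicate 2, and 0.054, 0.074 and 0.131 TPM in replicate 1.

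With the box called at a score of at least 14, KRAB members had higher middle levels than members without the box. At least 1 TPM in both libraries was reached by 130 of 194 KRAB members (67.0%) and by 78 of 128 members without the box (60.9%). Their medians on the log2(TPM + 1) scale were 2.11 and 2.03 for KRAB members and 1.75 and 1.53 for members without the box. The difference was 0.37 in replicate 1 and 0.51 in replicate 2, or 0.44 ± 0.1, larger than its spread between the libraries. It narrowed to 0.15 ± 0.035 among members with a mean of at least 1 TPM. Without the 18 members of the chromosome 4 region described next it was 0.19 ± 0.089. With a box score of at least 11 it was 0.25 ± 0.230, close to its spread, so the size of the difference depends on the cut. At the upper end the classes were close, with 16.5% of KRAB members and 12.5% of members without the box at 10 TPM or more in both libraries. Medians by number of fingers were also computed among KRAB members. The 10 members with 0 to 4 fingers had medians of 2.37 and 2.44, the 42 members with 5 to 9 fingers 1.95 and 2.01, the 93 with 10 to 14 fingers 1.95 and 1.96, and the 49 with 15 to 33 fingers 2.19 and 2.20 on the log2(TPM + 1) scale. The 96 KRAB genes outside the symbol rule resembled the KRAB members, with 66.7% at 1 TPM or more in both libraries and medians of 1.92 and 2.09.

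**Figure D3:**
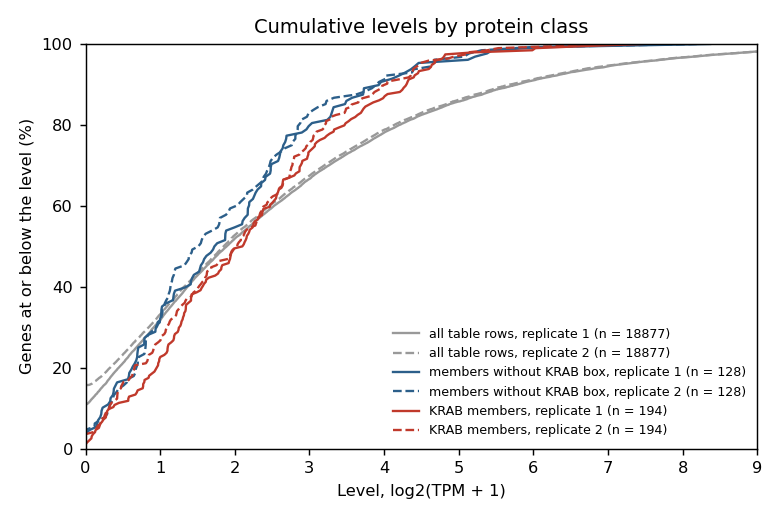
Cumulative share of genes (percent, vertical axis) at or below each log2(TPM + 1) level, for all 18877 rows in grey, 128 members without a KRAB box in blue and 194 KRAB members in red, with solid lines for replicate 1 and dashed lines for replicate 2. The red curves lie to the right of the blue at their middle, with medians of 2.11 and 2.03 against 1.75 and 1.53, and both member classes reach 100% before the grey curve.

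The classes differed in where their genes lay. Members less than 250 kb apart were joined, and groups of at least 5 were called clusters. This gave 16 clusters on 7 chromosomes with 135 members. Of the KRAB members 115 (59.3%) lay in a cluster, against 19 (14.8%) of the members without the box. At least 1 TPM in both libraries was reached by 82 clustered members (60.7%), a share close to the 60% of all genes. Among KRAB members the share was 65.2% inside and 69.6% outside clusters, with median levels of 2.11 ± 0.046 and 1.97 ± 0.008. The clusters themselves differed widely, with medians from 0.59 to 4.27 on the log2(TPM + 1) scale, and in 4 of the 16 every member was at 1 TPM or more in both libraries. Chromosome 7 held 7 clusters and 54 of the clustered members.

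The largest cluster lay at chr17:21383748-22456689 and held 18 members, all with the KRAB box, of which 16 were at 1 TPM or more in both libraries. Its median was 2.92 ± 0.328. Zfp944 was highest at 23.7 and 19.8 TPM, followed by Zfp946 at 18.2 and 11.7 TPM and Zfp53 at 18.6 and 7.56 TPM. Zfp947 was lowest, with 6 reads (0.220 TPM) in replicate 1 and 14 reads (1.46 TPM) in replicate 2. The cluster at chr13:67038596-67827002 held 16 KRAB members, of which 10 reached 1 TPM in both, with a median of 1.56 ± 0.165. None of its members passed 10 TPM on average, and its highest, Zfp65, stood at 6.92 and 6.77 TPM, ahead of Zfp748 at 6.39 and 4.12 TPM. Zfp708, with its uncertain reads, came after them, and the lowest was Zfp273 with 8 reads and 0 reads.

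The next cluster in size, at chr7:29768552-30169750, held 15 members, 11 of them with the box, and only 6 reached 1 TPM in both. A single gene, Zfp566, stood far above the rest, since the next, Zfp260, was at 4.98 and 6.92 TPM and Zfp74 at 4.77 and 5.85 TPM. Its lowest member was Zfp940, with 41 and 3 reads. After it, the cluster at chr17:32765496-33631779 held 11 members, 10 of them with the box, and 6 reached 1 TPM in both. Zfp472 stood at 24.7 and 14.7 TPM, Zfp763 at 5.65 and 4.04 TPM and Zfp101 at 4.17 and 5.32 TPM, and the lowest was Zfp952 at 0.939 and 0.342 TPM.

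The distal part of chromosome 4, chosen for description after its values were seen, held many of the most abundant KRAB members. KRAB genes outside the symbol rule were left out of this comparison. The region chr4:145510759-147848366, which spans 2.34 Mb and forms a single chain when gaps of up to 500 kb are joined, contains 18 members, all with the KRAB box. All 18 were at 1 TPM or more in both libraries, against 112 (63.6%) of the other 176 KRAB members and 60% of all genes. At least 10 TPM in both was reached by 11 (61.1%), against 21 (11.9%) of the other 176 and 25.3% of all genes. The median level was 4.05 and 3.69 in the region and 1.87 and 1.78 for the other KRAB members on the log2(TPM + 1) scale. These 18 genes make up 9.28% of the KRAB members and held 37.2% and 35.0% of their summed TPM. They supplied 6 of the 12 highest KRAB members.

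Levels within the region spread over more than an order of magnitude. Zfp985, the first of the KRAB sequences shown, was highest at 175 TPM, with an interval of 170 to 180, and 125 TPM, with an interval of 118 to 132. Zfp990, the first gene of the region in genomic order, followed at 102 TPM on 3378 reads and 79.95 TPM on 935 reads. Zfp988 came after them at 64.2 and 40.8 TPM. Zfp979 stood at 35.9 and 33.2 TPM and Zfp984 at 26.5 and 34.0 TPM. Zfp978, Zfp992, Zfp981 and Zfp534 had means from 20.1 down to 17.1 TPM, Zfp989 and Zfp993 stood at 11.6 ± 1.92 and 10.1 ± 0.015 TPM, and Zfp980, Zfp982, Zfp987, Zfp600, Zfp986 and Zfp991 had means from 9.24 down to 4.59 TPM. Zfp933 was lowest at 3.42 and 1.96 TPM. Replicate 2 was lower than replicate 1 for 14 of the 18, against 177 of the 326 members and 9688 of all 18877 genes. None of the 18 differed by more than 2-fold on the log2(TPM + 1) scale, against 7.36% of members and 10.2% of all genes.

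The near identity of these genes limits what can be said of each. Only 5 of the 18 had at least 80% of their 100-base exonic windows unique among annotated transcripts, and the lowest, Zfp993, had 28.1%. How reads matching several copies were counted is not given in the sources used here. The 5 mostly unique genes alone showed the same spread, with Zfp985 at 150 ± 35.8 TPM, Zfp990 at 90.8 ± 15.3, Zfp981 at 17.3 ± 2.56, Zfp982 at 8.57 ± 3.23 and Zfp933 at 2.69 ± 1.04 TPM. Zfp985 and Zfp982 are 98.3% and 96.9% unique, so little of their exonic sequence is shared with other genes.

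**Figure D4:**
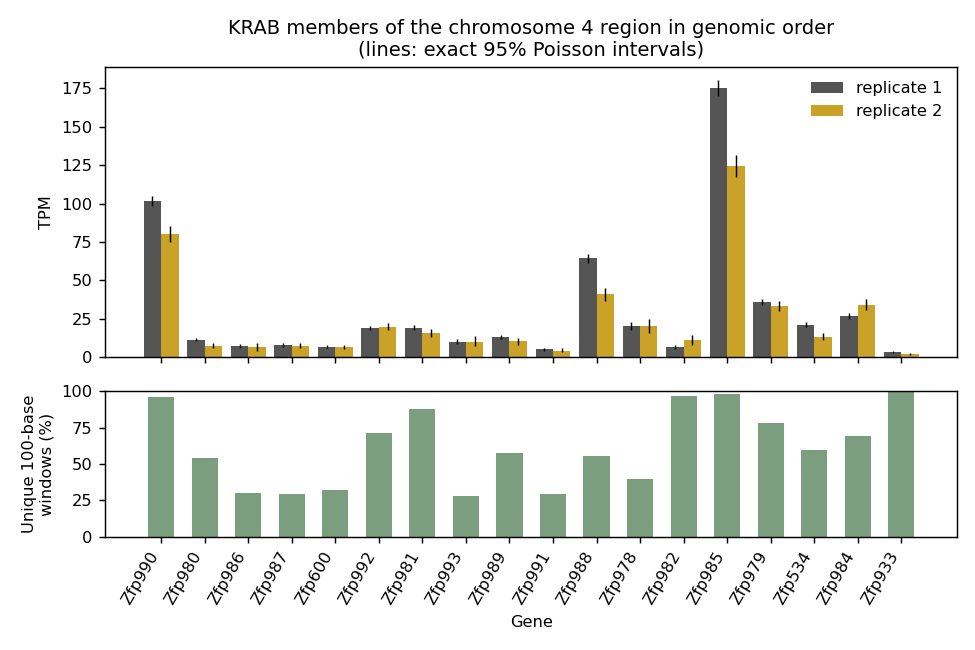
Upper panel, TPM of the 18 KRAB members of the chromosome 4 region in genomic order, with a bar for each replicate and lines for exact 95% Poisson intervals; lower panel, the percentage of each gene's 100-base exonic windows that is unique among annotated transcripts. Zfp985 and Zfp990 stand highest and are 98.3% and 96.4% unique, while 13 of the 18 genes are under 80%.

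The sequences before the starts of these genes were compared for the 12 with a RefSeq promoter. Apart from Zfp933 and Zfp993, the 10 others resembled each other, with a median of 79.2% of the 250 bases identical over their 45 pairs and a range of 63.6% to 96.0%. The closest pair, Zfp600 and Zfp979, shared 96.0% of the bases, yet stood at 6.79 ± 0.096 and 34.5 ± 1.91 TPM. Only 32.3% of the exonic windows of Zfp600 are unique, against 78.5% in Zfp979, and the part of shared reads in this gap was not tested. Zfp985 and Zfp982 shared 82.4% and differed more, at 150 ± 35.8 and 8.57 ± 3.23 TPM. Between Zfp933 or Zfp993 and any of the others no alignment exceeded 38 bases. Across all members, 269 of 326 had a RefSeq promoter (82.5%), and the ratio of observed to chance-expected CpG over the 300 bases from 250 before to 50 after the start had a median of 0.624. It was 0.524 in the 167 KRAB members with a promoter. By comparison Trim28 stood at 0.761, Zfp985 at 0.433 and Zfp57 at 0.376. Among KRAB members, 44 of 70 (62.9%) above a ratio of 0.6 and 68 of 97 (70.1%) at or below it were at 1 TPM or more in both libraries. Promoters were found for 57.3% of all rows, under the 80% required, so these shares have no background over all genes. For members without the box the promoters covered 78.1%, under the 80% required, and no comparison of the classes was made.

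Many members differed between the libraries by more than their counting error. The intervals of both libraries did not overlap for 119 members (36.5%), against 24.7% of the 18748 genes with an interval. Of these, 81 (68.1%) were higher in replicate 1 and 38 in replicate 2, and over all genes 2780 of 4636 (60%) were higher in replicate 1. The share without overlap was 41.2% in KRAB members and 29.7% in members without the box. Whether intervals overlap depends on the number of reads. The median member had 116 and 36 reads, against 71 and 24 over all rows. The part of read number in these shares was not tested. Across the 326 members, levels of both libraries had a Pearson correlation of 0.927 and a Spearman correlation of 0.892, against 0.960 and 0.900 across all rows. Genes are not independent replicates, and each correlation describes the same pair of libraries. On the log2(TPM + 1) scale, 6 members were over 2-fold higher in replicate 2, against 4.31% of all genes, and 18 were over 2-fold lower, against 5.89%. With a pseudocount of 0.1 the count in either direction was 77 in place of 24 (23.6%, against 23.7% of all genes). Of the 24 members, 12 had fewer than 10 reads in replicate 2. Summed macrophage markers were also lower in replicate 2, at 9.53 against 19.4 TPM, as were the 4 endothelial markers other than Pecam1, at 1.01 against 4.71 TPM. Summed mesenchyme markers were higher, at 3.95 against 2.37 TPM. The part of these cells in the library differences was not tested.

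**Figure D5:**
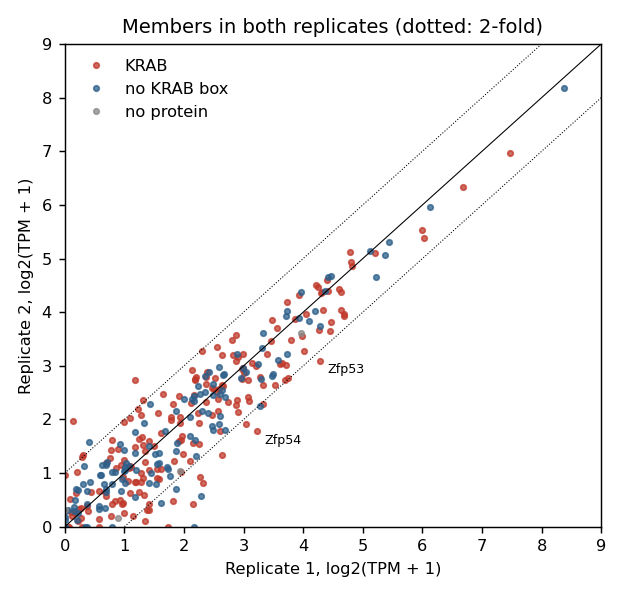
Level of each member in replicate 1 (horizontal) and replicate 2 (vertical), both as log2(TPM + 1), coloured by KRAB box; the solid line marks equality and the dotted lines a 2-fold difference. Most points lie between the dotted lines, with 18 members below the lower line and 6 above the upper, and Zfp53 and Zfp54 are labelled.

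The 5 members most reduced in replicate 2 at a mean of at least 5 TPM were KRAB members except Zfp37. Zfp54 stood at 8.39 TPM on 226 reads and 2.43 TPM on 23 reads, and its intervals of 7.34 to 9.56 and 1.54 to 3.65 did not overlap. Zfp53 stood at 18.6 TPM on 541 reads and 7.56 TPM on 77 reads. Both lie in the large chromosome 17 cluster, where 14 of 18 members were lower in replicate 2. Over all members 177 of 326 were lower, and over all genes 9688 of 18877. The median difference was -0.59 in the cluster on the log2(TPM + 1) scale, against -0.05 for all members and -0.013 for all genes. Zfp945, also on chromosome 17 but outside the cluster, stood at 7.25 and 2.76 TPM. Zfp37 on chromosome 4 was at 8.73 and 3.73 TPM and Zfp931 on chromosome 2 at 9.01 and 3.90 TPM.

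In the other direction the 5 largest differences at a mean of at least 5 TPM were smaller. Zfp850 stood at 3.96 TPM on 232 reads and 8.74 TPM on 180 reads, with intervals of 3.47 to 4.50 and 7.51 to 10.1. Zfp78 stood at 4.86 and 9.24 TPM, Zfp982 at 6.29 and 10.9 TPM, Zfp788 at 5.95 and 10.2 TPM and Zfp719 at 5.21 and 8.20 TPM. All 5 have the KRAB box. A further case, chosen after its values were seen, was Zfp72, with 139 reads (3.52 TPM, interval 2.96 to 4.15) in replicate 1 and 0 reads in replicate 2, where a count of 0 has an interval up to 0.265 TPM. Its exons are unique among annotated transcripts.

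Shared sequence touched other members as well. Of the 326, 167 had exons fully unique over 100-base windows, 40 had less than 80% unique and 18 less than 50%, and 30 of those 40 carry the KRAB box. Without the 40, 181 of 286 members (63.3%) were at 1 TPM or more in both libraries, and the median level was 1.76 ± 0.153 on the log2(TPM + 1) scale.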

How the data were processed

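The members and gene lists were chosen with earlier results of these data known. Per the labels, RNA from SSEA1-isolated cells was made into libraries with an NEBNext Ultra kit, while the study's methods describe full-length cDNA amplification for RNA-seq; which applied to these libraries was not settled. The authors aligned reads to mm10 with Hisat2, counted them with featureCounts and deposited TPM, that is, reads scaled by gene length and library total. The submitters' processing notes also name Bowtie2, RSEM, DESeq2 and R 3.4.2, and how multimapping reads were treated is not given in the sources used here.

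TPM multiplied by the GENCODE M21 exon length came out as whole multiples of a single amount per library, which gave the recovered reads. Among genes with any reads but fewer than 50, 96.7% and 95.8% lay within 0.02 of a whole read. This share was not computed for genes with more reads. The step was tested on simulated data. Levels are log2(TPM + 1) with a pseudocount of 1. No test was possible with 1 group of 2 libraries, and no count model was run. KRAB boxes and fingers were scored on GENCODE M21 translations, since no RefSeq protein was used here. Uniqueness compares 100-base windows between annotated transcripts only. Named genes were Trim28, all rows of the lists, the 12 highest members and KRAB members, the 5 most different in each direction between libraries at a mean of at least 5 TPM, the 3 highest and the lowest of the 4 largest clusters, and members at 0. A gene planned for the partner list is not reported here, and the list's values leave it out. Other listed genes without a row in the table are left out of all shares and sums. Alternatives covered pseudocount, thresholds, score, cluster gap, uniqueness, scaling and leaving out a library. Python 3.11.15, pandas 2.3.3, scipy 1.17.1 and biopython 1.88 were used.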

Additional observations from a re-analysis of the deposited data

How the results depend on the processing

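Of 50 alternatives over 10 results, 34 stayed within the spread between replicates or, for counts, within 1.5 times; 15 moved and 1 changed direction. Medians between replicates, which have no spread of their own, were held to a tolerance of 0.1 on the log2 scale. With a threshold of 5 TPM, 90 members, 59 KRAB members and 36 clustered members remained above it, against 210, 130 and 82 at 1 TPM, and a cluster gap of 100 kb left 53 clustered members above 1 TPM. A pseudocount of 0.1 moved the members' median to 1.45, the KRAB minus other difference to 0.58 and the partners' median to 3.79, and raised the count over 2-fold between libraries from 24 to 77. A mean of at least 1 TPM moved the members' median to 2.44, the difference from all genes to -0.47 and the KRAB difference to 0.15, and protein-coding rows alone moved the difference from all genes to -0.38. The KRAB difference was 0.25 at a score of 11 and, in 2 alternatives added after seeing the data, 0.29 with mostly unique members and 0.19 without the chromosome 4 region. Leaving out a library gave a difference from all genes of -0.061 to 0.048, so its sign was not stable. Leaving out a library left no value for the results that compare the libraries. The depth of replicate 2 limits members with few reads.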
